A study of Homo sapiens with 6 samples.

Results

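Dynamins and the clathrin coat carry out the main route by which receptors leave the cell surface. Clathrin, built of heavy and light chains, is recruited to the membrane by adaptors, and the bud is then cut from the membrane by a collar of dynamin, a GTPase that constricts the neck. The 10 genes described here were chosen by name, and all 10 were found among the 57341 named rows of the deposited table. They are the dynamin genes DNM1, DNM2 and DNM3, the clathrin chain genes CLTA, CLTB and CLTC, the adaptor genes AP2M1 and PICALM, and HIP1 and HIP1R, whose products bind the coat and the lipids below it. The table holds no probe of endocytosis itself, so all values below are levels of RNA.

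RNA was sequenced from H295R, a human adrenocortical carcinoma cell line, and from H295R-PM-Ptc+ cells. The latter are H295R cells that carried the Hedgehog receptor Ptch1 at the plasma membrane, and they were sorted with an antibody against it and then amplified in culture. Both populations were grown in the same medium without treatment, and each gave 3 replicate libraries, which were not stated to be separate cultures. The p-values therefore measure the spread between these libraries, which may be technical. The study placed DNM1, DNM3 and HIP1 in a group of genes for endocytosis, and the comparison asks how the RNA of this machinery differed between the populations.

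Between 23264403 and 25813247 fragments were counted per library, and 16710 genes passed the filter on low counts and were tested. PTCH1, the gene for which the population is named, had 18.5, 22.0 and 23.4 CPM under the H295R label and 9.70, 13.1 and 13.8 CPM under the H295R-PM-Ptc+ label, where CPM is the count scaled by the TMM-adjusted total of the library. PTCH1 RNA was thus lower where the label names cells with more Ptch1 (log2 fold change -0.81, standard error 0.147, edgeR adjusted p = 0.0207). The study's own processed values carry the group names the other way round for the same libraries. Directions read from them are thus the reverse of those given here. Under the study's names PTCH1 RNA would be higher in the cells named for Ptch1, but which names are right was not tested. By staining and Western blot, the study reported more Ptch1 protein in H295R-PM-Ptc+ cells, and by Western blot more of several other proteins. These protein measures bear on the names and were not analysed here. Libraries keep the deposited labels throughout, and each direction below would turn if those labels were exchanged. None of 8 adrenocortical marker genes was at 0, and their summed level was 880 to 1160 CPM under the H295R label and 958 to 1216 CPM in the others. Of these 8, 3 had a log2 fold change above 0 and 5 below, with a median of -0.068. Only 1 of the 8 passed, the steroid hydroxylase gene CYP21A2 (0.88, edgeR adjusted p = 0.00670), beside 3.73% of all tested genes. With the replicate number as a block in the fit, STAR (0.41) also passed as higher and CYP11A1 (-0.24) as lower, at adjusted p = 3.91e-06 and 0.00100. This makes 3 of the 8, beside 22.5% of all tested genes. The 7 markers of other cell types summed to 9.72 to 11.7 and 13.8 to 14.6 CPM, mostly COL1A1, and PTPRC was at 0 in every library. EPCAM, an epithelial marker of that list, was higher under the H295R-PM-Ptc+ label (log2 fold change 0.92, edgeR adjusted p = 0.0382), and the part of these genes in the results below was not tested.

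Of the 10 genes, DNM3 was higher and DNM1 was lower under the H295R-PM-Ptc+ label, at an adjusted p under 0.05 by edgeR. These 2 of 10 genes stand beside 3.73% of all tested genes, 2.42% higher and 1.32% lower. The same pair passed by DESeq2, beside 5.45% of all tested genes, and by limma-voom, beside 3.64%. The study picked DNM1, DNM3 and HIP1 on these same libraries, under the exchanged group names, so the count is no independent evidence. With this block 5 of the 10 genes passed (CLTC, DNM2 and DNM3 higher, DNM1 and HIP1 lower), beside 22.5% of all tested genes. When replicate 1 of both groups was left out, DNM1, DNM3 and HIP1 passed without the block, beside 12.0% of all tested genes. With the block DNM2 and HIP1R then passed too and CLTC did not, which makes 5 of the 10 beside 25.0%. The 2 sets of libraries were fully apart for 4 of the 10 genes, namely DNM1, DNM2, DNM3 and HIP1, and for 23.5% of all tested genes. The other 6 genes overlapped between the groups, among them all 3 clathrin chains. Fewer cells that express a gene and less of its RNA per cell cannot be told apart in these bulk libraries.

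**Figure D1:**
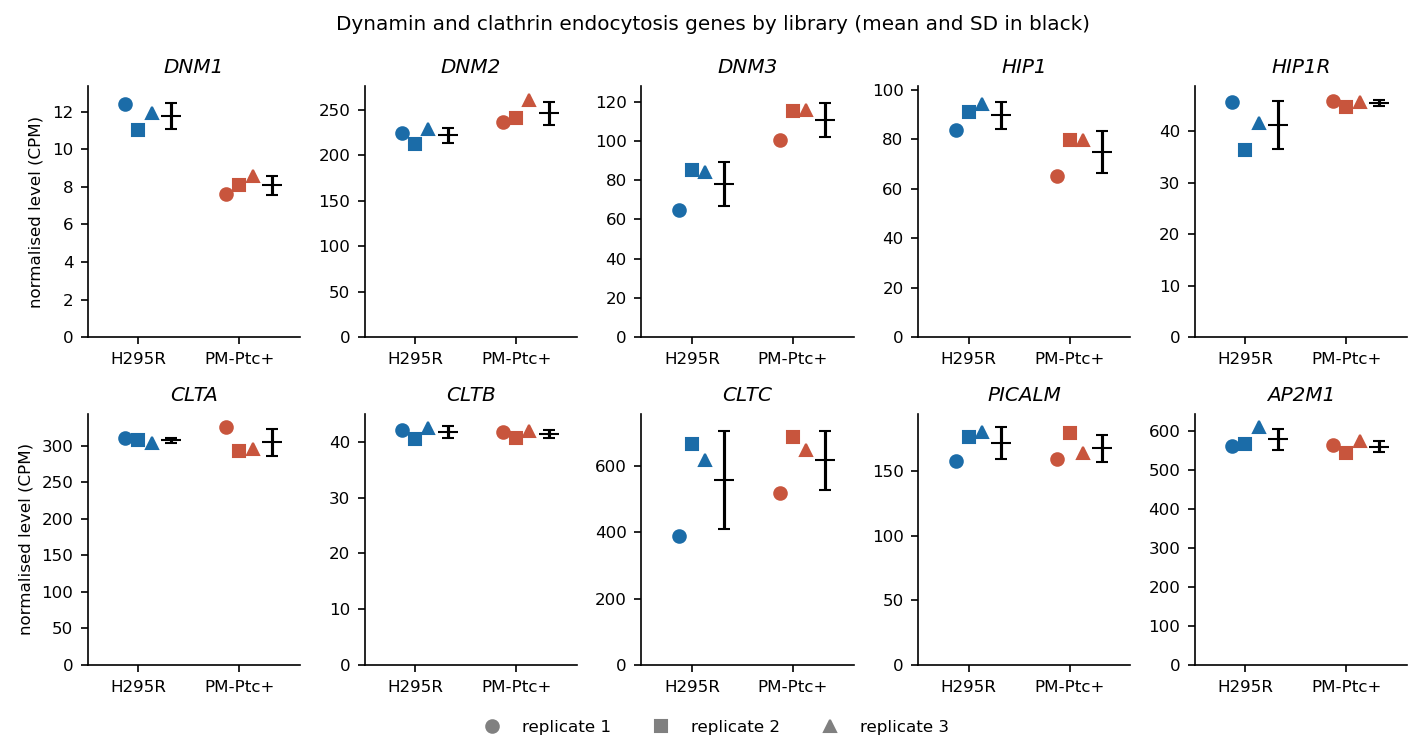
Normalised level in CPM (linear axis from 0) of each gene in the 3 libraries labelled H295R (blue) and the 3 labelled H295R-PM-Ptc+ (red), with the symbol giving the replicate number and the black bars the mean and SD. The groups stand apart for DNM1, DNM2, DNM3 and HIP1, and replicate 1 is the lowest of its group for CLTC, at 389 and 517 CPM.

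Of the dynamins, DNM1 is known as the dynamin of nerve terminals, where it serves the recycling of synaptic vesicles. The gene lies on the plus strand of chromosome 9 (GRCh38) from 128203379 to 128255248. It was the least abundant of the 10 genes, with 280 to 296 counts per library under the H295R label and 194 to 201 under the H295R-PM-Ptc+ label. Normalised, these are 12.4, 11.02 and 11.9 CPM against 7.59, 8.08 and 8.60 CPM, or 11.8 ± 0.695 and 8.09 ± 0.503 CPM (SD, n = 3 each). Every library labelled H295R lay above every library of the other group. The log2 fold change was -0.54 (standard error 0.107, edgeR adjusted p = 0.0283), a change of -31.3%.

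DNM3, on the plus strand of chromosome 1 from 171841498 to 172418466, encodes a dynamin known from testis and from the postsynaptic side of neurons. It moved the other way, with 64.96, 85.0 and 84.2 CPM under the H295R label and 101, 115 and 116 CPM under the H295R-PM-Ptc+ label. The means were 78.1 ± 11.4 and 111 ± 8.59 CPM (SD, n = 3 each). Replicate 1 was the lowest library of both groups, and the groups still did not overlap. The log2 fold change of DNM3 was 0.50 (standard error 0.115, edgeR adjusted p = 0.0495), a change of 41.6%. With the replicate block the adjusted p was 2.71e-06 for DNM3 and 7.03e-04 for DNM1.

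Whether either gene passed without the block depended on single libraries, although both held without replicate 1 of both groups. When any single library other than H295R replicate 1 was left out, neither DNM1 nor DNM3 reached an adjusted p under 0.05, although 2 or 3 of the 10 genes kept an unadjusted p under 0.05. On the same omissions the calls over all genes fell from 624 to between 219 and 430. These fits used no block and left 1 library without its same-numbered partner. The log2 fold changes stayed between -0.60 and -0.51 for DNM1 and between 0.38 and 0.57 for DNM3. For DNM1 the edgeR adjusted p was 0.0608 and 0.112 on leaving out H295R replicate 2 or 3, and 0.0788, 0.116 and 0.0793 on leaving out H295R-PM-Ptc+ replicate 1, 2 or 3. For DNM3 the same omissions gave 0.0887, 0.117, 0.0513, 0.173 and 0.186. Asking for at least 10 counts in every library left DNM3 at 0.0552.

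DNM2, the dynamin found in all tissues and the main one of non-neuronal cells, lies on chromosome 19 from 10718079 to 10833488. It had 224, 213 and 229 CPM under the H295R label and 237, 242 and 261 CPM in the others. The groups did not overlap, but they lay close, and the log2 fold change was 0.15 (standard error 0.0753, edgeR adjusted p = 0.356). The blocked fit gave the same fold change an adjusted p of 0.0199. Without H295R-PM-Ptc+ replicate 3 and without the block, the log2 fold change was 0.099 (edgeR adjusted p = 0.759). On the opposite strand of DNM2, 776 bases of its exons are shared with TMED1, which held 717 to 1008 counts per library against 5355 to 6064 for DNM2.

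DNM2 also gave most of the dynamin RNA. To compare genes with each other, levels were divided by the exon length of each gene, as CPM per kilobase. On that scale DNM2 stood at 16.5 ± 0.628 under the H295R label and 18.3 ± 0.933 in the others, DNM3 at 6.90 ± 1.00 and 9.77 ± 0.759, and DNM1 at 2.11 ± 0.124 and 1.45 ± 0.0901 (SD, n = 3 each). The share of DNM1 in the dynamin sum was 8.27% ± 0.644 under the H295R label and 4.90% ± 0.0358 under the H295R-PM-Ptc+ label. The share of DNM3 was 27.0% ± 3.29 and 33.0% ± 1.29, and DNM2 held between 60.7% and 67.7% of the sum in every library. Summed, the 3 genes reached 24.6, 25.3 and 26.6 CPM per kilobase against 27.9, 29.6 and 31.2, so that the groups did not overlap (exact permutation test on the log2 sums, two-sided, p = 0.1, the smallest that 3 libraries against 3 allow, adjusted p = 0.3 over 3 sums).

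**Figure D2:**
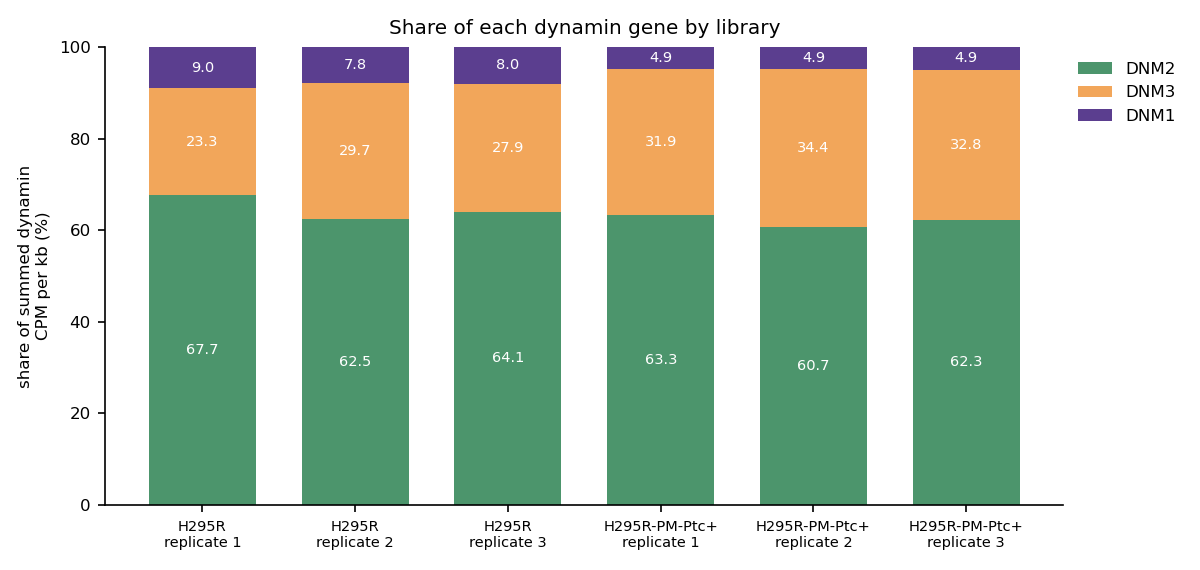
Share of each dynamin gene in the summed CPM per kilobase of DNM1, DNM2 and DNM3 (percent, stacked to 100), one bar per library. DNM1 held 8.27% on average in the 3 libraries labelled H295R and 4.90% in the 3 under the other label, and DNM2 held the most in every library.

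Within a library, DNM3 exceeded DNM1 per kilobase 2.59-, 3.81- and 3.48-fold under the H295R label and 6.55-, 7.04- and 6.64-fold under the H295R-PM-Ptc+ label. The ratio of DNM1 to DNM3 differed by -1.05 on the log2 scale between the groups, and the groups did not overlap (exact permutation test, two-sided, p = 0.1, adjusted p = 0.15 over 3 ratios). The study chose both genes for their difference, so the ratio describes it and adds no test.

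Reads of DNM1 could in principle be counted on its pseudogenes, since multiply mapped reads were kept at their primary position. The table lists 16 DNM1 pseudogenes, of which 9 had a count and 2 passed the filter. Together they held 43 to 77 counts per library, which is 15.4% to 39.7% of the DNM1 count. Compared over the exons of the table and the GENCODE transcripts, none of the 11639 windows of 75 bases in DNM1, the length of one read, occurs in any of them. The longest identical run is 50 bases and is shared with DNM1P46. It lies in coding exon 20 of DNM1 (MANE Select transcript) and in an exon of the pseudogene on chromosome 15. Both stretches are printed 5′ to 3′ on the strand of the gene to show how short the shared part is, with the identical run in capitals and 10 flanking bases on each side in lower case, from chr9:128250172-128250241 (plus strand) and chr15:99799719-99799788 (minus strand) of GRCh38.
DNM1: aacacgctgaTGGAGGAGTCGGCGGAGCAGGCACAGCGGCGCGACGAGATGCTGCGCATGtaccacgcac
DNM1P46: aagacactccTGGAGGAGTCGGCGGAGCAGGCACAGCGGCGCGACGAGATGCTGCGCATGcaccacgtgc

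DNM1P46 followed DNM1 in sign, with 27, 19 and 17 counts under the H295R label and 18, 13 and 10 in the others (log2 fold change -0.61, standard error 0.310, edgeR adjusted p = 0.363). DNM1P35, the most abundant of the pseudogenes, had the opposite sign, with 41, 23 and 32 counts against 50, 48 and 36 (log2 fold change 0.48, standard error 0.251, edgeR adjusted p = 0.378). The groups overlapped for both. When the counts of all DNM1 pseudogenes were added to DNM1, its log2 fold change was -0.38 and its adjusted p 0.0847. DNM1P34, the next by level, had at most 5 counts in a library. DNM1P35 shares no identical run with DNM1 over 29 bases. The dynamins share no window of 75 bases with each other either, the longest identical run being 44 bases between DNM1 and DNM3.

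DNM3OS, a noncoding RNA on the opposite strand within DNM3, had at most 2 counts in any library. All rows for microRNA hairpins within the dynamin genes were at 0, among them MIR199B in DNM1, MIR199A1 in DNM2 and MIR199A2 and MIR214 in DNM3. Such short RNAs are poorly caught in libraries of polyadenylated RNA, so a row at 0 says nothing on the microRNA itself.

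The promoters of the dynamins whose RNA passed the test are shown for comparison, from 250 bases before to 50 after the start of each gene, 5′ to 3′ on the plus strand (RefSeq, GRCh38.p14), at chr9:128203129-128203428 for DNM1 and chr1:171841248-171841547 for DNM3. Capitals mark the GC box GGGCGG on either strand, where overlapping boxes run together.
DNM1: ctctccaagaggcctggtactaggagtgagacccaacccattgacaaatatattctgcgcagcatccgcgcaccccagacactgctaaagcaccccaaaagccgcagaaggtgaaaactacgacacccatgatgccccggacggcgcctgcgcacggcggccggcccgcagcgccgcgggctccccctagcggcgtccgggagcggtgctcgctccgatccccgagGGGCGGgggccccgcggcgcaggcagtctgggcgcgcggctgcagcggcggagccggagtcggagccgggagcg
DNM3: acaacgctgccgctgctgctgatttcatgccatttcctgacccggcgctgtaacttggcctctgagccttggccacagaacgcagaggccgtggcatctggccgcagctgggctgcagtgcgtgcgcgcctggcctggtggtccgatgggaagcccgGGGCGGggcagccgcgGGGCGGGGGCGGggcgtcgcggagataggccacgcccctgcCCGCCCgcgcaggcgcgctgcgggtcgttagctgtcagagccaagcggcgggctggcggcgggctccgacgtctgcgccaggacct

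Both windows are rich in G and C, at 70.3% for DNM1 and 72.7% for DNM3, against a median of 58.7% over 35116 promoter windows. DNM1 holds 1 GC box and DNM3 holds 4, and 45.0% of all windows hold at least 1. Neither holds the TATA box TATAAA, which 11.5% of all windows hold on one strand or the other, nor the letters GACCACCCA of the binding site of GLI factors, which 0.236% hold. These matches describe the letters of the windows and no binding was measured.

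HIP1 and HIP1R are relatives that bind clathrin light chains and membrane lipids, and HIP1R also binds actin. HIP1 lies on the minus strand of chromosome 7 from 75533300 to 75738962. It had 83.6, 91.0 and 94.4 CPM under the H295R label and 64.98, 79.7 and 79.5 CPM under the H295R-PM-Ptc+ label, and the groups did not overlap. The log2 fold change was -0.26 (standard error 0.0982, edgeR adjusted p = 0.207), with an unadjusted p of 0.0253. Without H295R replicate 2, H295R replicate 3 or H295R-PM-Ptc+ replicate 1 the unadjusted edgeR p was 0.061, 0.081 and 0.064. It stayed under 0.05 without each of the other libraries. An unadjusted p under 0.05 was found for 3 of the 10 genes, DNM1, DNM3 and HIP1, and for 17.3% of all tested genes. In the blocked fit the adjusted p was 0.00106.

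HIP1R, on chromosome 12 from 122834453 to 122862960, had 45.7, 36.3 and 41.6 CPM under the H295R label and 45.8, 44.8 and 45.7 CPM in the others. The difference was smaller than the spread of the first group (log2 fold change 0.14, edgeR adjusted p = 0.498), and with the replicate block the adjusted p was 0.108. The fold change was 0.22 without H295R replicate 1 and 0.057 without H295R replicate 2. HIP1 exceeded HIP1R per kilobase 1.45-, 1.99- and 1.80-fold under the H295R label and 1.13-, 1.41- and 1.38-fold in the others. The groups did not overlap in this ratio, at a difference of -0.41 (log2, exact permutation test, two-sided, p = 0.1, adjusted p = 0.15 over 3 ratios). HIP1 too was chosen by the study on these libraries, so this ratio is a description as well.

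None of the clathrin chain genes passed without the block, and CLTC alone of them passed with it. CLTA and CLTB encode the light chains, which bind HIP1 and HIP1R and tune the coat. CLTA had 311, 309 and 304 CPM under the H295R label and 326, 293 and 295.3 CPM in the others, a log2 fold change of -0.014 with a 95% interval from -0.18 to 0.16 (edgeR adjusted p = 0.956). CLTB had 42.1, 40.5 and 42.5 CPM against 41.7, 40.6 and 42.0 CPM, a log2 fold change of -0.0094 with an interval from -0.16 to 0.15 (adjusted p = 0.969). The groups overlapped for both genes.

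Per kilobase, CLTA made up between 85.1% and 86.4% of the light chain RNA in the 6 libraries. The ratio of CLTB to CLTA differed by 0.0063 on the log2 scale between the groups, with SDs of 0.0473 and 0.0789 within them (exact permutation test, two-sided, p = 1).

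CLTC, the heavy chain that forms the legs of the clathrin lattice, lies on chromosome 17 from 59619689 to 59696956. It varied more between replicates than any other of the 10 genes, with 389, 665 and 618 CPM under the H295R label and 517, 686 and 648 CPM under the H295R-PM-Ptc+ label. Replicate 1 was the lowest of both groups. The log2 fold change was 0.15 with an interval from -0.28 to 0.58 (edgeR adjusted p = 0.771), and it was -0.057 without H295R replicate 1. With the replicate block it was 0.17 at an adjusted p of 0.0446, but 0.057 at 0.324 when replicate 1 of both groups was left out. On the opposite strand, PTRH2 shares 244 bases with exons of CLTC and held 590 to 718 counts per library, against 9296 to 17053 for CLTC.

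The light chains exceeded the heavy chain per kilobase 4.39-fold in H295R replicate 1 and 3.43-fold in H295R-PM-Ptc+ replicate 1, but 2.36- to 2.71-fold in the other 4 libraries. Both libraries with the higher ratio are replicate 1, where CLTC, the divisor of the ratio, was lowest in each group. Exon lengths that sum all transcripts of a gene enter this ratio, so it compares libraries and does not give a number of chains per coat.

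AP2M1 encodes the subunit of the AP-2 adaptor that reads sorting signals in receptor tails, and it lies on chromosome 3 from 184174689 to 184184091. It had 561, 566 and 611 CPM under the H295R label and 563, 545 and 574 CPM in the others, and the groups overlapped. Its log2 fold change was -0.048 with an interval from -0.22 to 0.12 (edgeR adjusted p = 0.818). PICALM, the adaptor that senses membrane curvature and sorts vesicle SNAREs, is on chromosome 11 from 85957684 to 86069882. It had 158, 177 and 181 CPM against 159, 180 and 164 CPM, a log2 fold change of -0.033 with an interval from -0.23 to 0.16 (adjusted p = 0.899).

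**Figure D3:**
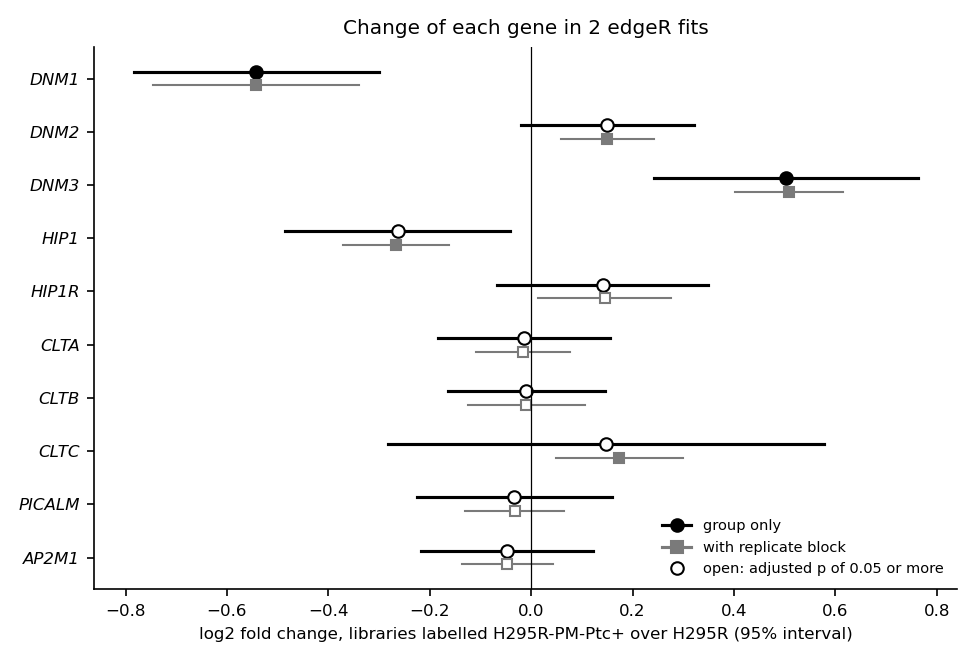
Log2 fold change of each gene, libraries labelled H295R-PM-Ptc+ over H295R, with its 95% interval, from edgeR with group only (black circles) and with the replicate number as a block (grey squares), filled where the adjusted p over all genes was under 0.05. DNM1 (-0.54) and DNM3 (0.50) are filled in both fits, and DNM2, HIP1 and CLTC in the blocked fit only.

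The order of the 10 genes by level per kilobase was the same at its ends in both groups. CLTA (122 under the H295R label and 121 in the others) and AP2M1 (122 and 118) were the highest and did not differ beyond their spread, followed by CLTC (47.1 and 52.1), PICALM (29.4 and 28.7), CLTB (20.5 and 20.3) and DNM2 (16.5 and 18.3, all mean CPM per kilobase). In the libraries labelled H295R, HIP1 (10.02) came before DNM3 (6.90) and HIP1R (5.80). In those labelled H295R-PM-Ptc+, DNM3 (9.77) came before HIP1 (8.35) and HIP1R (6.39). In each of these groups the libraries of DNM3 overlapped with those of its nearest neighbour, HIP1R in the former and HIP1 in the latter. DNM1 was last in both, with 33.1% of all tested genes at or below it, while the percentiles of CLTA and AP2M1 were 98.5 and 98.4.

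The neighbours of each gene on its chromosome were set beside it. Among the 100 tested genes around DNM1, 50 on each side, 70 were lower under the H295R-PM-Ptc+ label, their median being -0.072 on the log2 scale, and DNM1 lay -0.47 beyond it. Around DNM3, 64 of 100 were higher, with a median of 0.081, and DNM3 lay 0.42 beyond it. For the other 8 genes, 45 to 60 of the 100 neighbours were lower, and the medians of the neighbours lay between -0.046 and 0.032. Over all tested genes 50.2% were higher.

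Over 5 lists of other genes of uptake and of the dynamin superfamily, 8 of 94 tested genes passed without the block (8.51%, beside 3.73% of all tested genes). The lists were chosen with earlier results of these data known. Of the 8, 5 are in the dynamin superfamily, among them GBP1, GBP2, GBP3 and GBP4, which are not genes of coated pits. Without the block 3.57% passed in the list of the coat and its adaptors and 0% in that of scission and uncoating. With the block 27 passed (28.7%, beside 22.5%). Of 28 tested genes (31 listed) of the coat and its adaptors, CLTCL1 was lower and none was higher, and 20 of the 28 log2 fold changes were above 0, with a median of 0.088 against 0.00094 and 50.2% above 0 over all tested genes. CLTCL1, a second clathrin heavy chain gene, had 38.2, 38.7 and 40.1 CPM under the H295R label and 28.9, 32.1 and 31.0 CPM in the others, with no overlap (log2 fold change -0.35, standard error 0.0748, edgeR adjusted p = 0.0405). It is the other heavy chain gene that the study placed in a module with DNM1, DNM3 and HIP1. That module was built on these same libraries, so the call of CLTCL1 is no independent evidence. It made up 10.4%, 6.41% and 7.10% of the heavy chain RNA per kilobase under the H295R label and 6.18%, 5.22% and 5.33% in the others, the highest share being that of H295R replicate 1, where CLTC was lowest. No window of 75 bases is shared with CLTC. Without any single library other than H295R replicate 1 its adjusted p lay between 0.0978 and 0.158. AP2S1, the small AP-2 subunit and the highest of the list per kilobase, stood at 0.12 (log2, adjusted p = 0.529). With the replicate block, 6 genes of this list passed, 4 higher (AP2A1, HGS, ITSN2 and NUMBL) and 2 lower (CLTCL1 and NECAP1), which is 21.4% beside 22.5% of all tested genes.

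Of 27 genes, all tested, of scission, uncoating and the lipids and actin around the neck, none passed by edgeR or limma-voom and PIP5K1B passed by DESeq2, while 3 had an unadjusted p under 0.05, all higher (11.1%, beside 17.3% of all tested genes). In this list 19 of 27 log2 fold changes were above 0, with a median of 0.050. HSPA8, the chaperone that strips clathrin from vesicles and the most abundant of the list, stood at -0.017 (adjusted p = 0.968). PIP5K1B, PIP5K1C and WASL were higher and ACTR2 and AMPH lower with the replicate block (18.5% of the list, beside 22.5%).

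The other members of the dynamin superfamily held more calls, with 5 of 16 tested genes (18 listed) higher and none lower, or 31.2% beside 3.73% of all tested genes in both directions, and a median log2 fold change of 0.062. GBP1, GBP2, GBP3 and GBP4 are guanylate-binding proteins, known as interferon-induced GTPases of host defence and not of coated pits. They lie together on chromosome 1 between 89006666 and 89198932. The share of 31.2% thus rests mostly on 1 stretch, and whether these calls are independent was not tested. GBP4 had only 3 to 5 counts per library under the H295R label. Their log2 fold changes were 0.56, 1.75, 1.03 and 2.39 (edgeR adjusted p = 0.0276, 0.00341, 0.0136 and 0.00988), and the groups did not overlap for any of them. GBP2 had 2.59, 3.03 and 2.10 CPM under the H295R label and 10.9, 8.73 and 6.39 CPM in the others. The study names GBP1, GBP2 and GBP3 from these libraries too, under the exchanged group names, so their direction is no independent evidence. EHD2, an ATPase of the neck of caveolae, had 83.4, 68.1 and 83.0 CPM against 120, 118 and 123 CPM (log2 fold change 0.62, adjusted p = 0.00791). MFN2, a mitochondrial fusion GTPase and the most abundant of the list per kilobase, stood at 0.041 (adjusted p = 0.872). EHD1 and EHD3 passed as higher with the replicate block only, which makes 7 of 16 (43.8%, beside 22.5% of all tested genes).

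Of 10 tested genes (13 listed) of uptake without clathrin, none passed by edgeR, DESeq2 or limma-voom, and 4 had an unadjusted p under 0.05 by edgeR, 1 higher and 3 lower (beside 17.3% of all tested genes). The median log2 fold change was -0.042. With the replicate block 4 of the 10 passed (beside 22.5% of all tested genes), CAV1 as higher and CAV2, MURC and ARHGAP26 as lower. CAV1, the defining caveolar coat gene, was near the limit of detection, at 0.354 and 0.735 CPM on average. RHOA, the most abundant of the list, stood at -0.12 (log2, adjusted p = 0.458).

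Among 13 tested receptors (14 listed) that are taken up from the surface or bring cargo in, SCARB1 was higher and LRP5 lower (15.4%, beside 3.73% of all tested genes), and the median log2 fold change was -0.027. SCARB1, the receptor by which adrenal cells take cholesteryl esters from HDL, had 836, 762 and 851 CPM under the H295R label and 1224, 1255 and 1311 CPM in the others (log2 fold change 0.63, standard error 0.0803, edgeR adjusted p = 0.00345). LRP5, a Wnt co-receptor, had 64.6, 48.9 and 63.2 CPM against 35.6, 39.8 and 42.9 CPM (log2 fold change -0.58, adjusted p = 0.0348). TFRC, the transferrin receptor and classical cargo of coated pits, was the most abundant of the list and stood at -0.035 (adjusted p = 0.969). IGF1R, IGF2R and LRP6 passed as higher with the replicate block only, which makes 5 of 13 (38.5%, beside 22.5% of all tested genes).

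**Figure D4:**
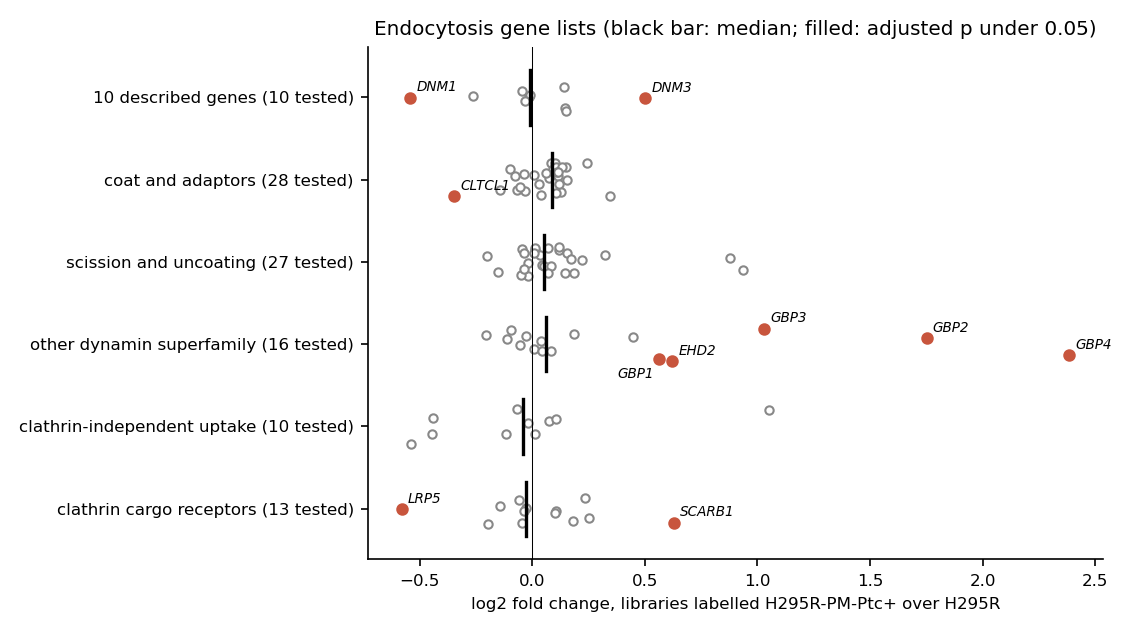
Log2 fold change of each tested gene, libraries labelled H295R-PM-Ptc+ over H295R, in the 10 described genes and 5 lists of other genes, filled and named where the edgeR adjusted p was under 0.05, with the median of each list as a black bar. Filled points are DNM1, CLTCL1 and LRP5 on the lower side and DNM3, EHD2, SCARB1 and 4 GBP genes on the higher side.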

How the data were processed

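Paired reads of 75 bases from stranded libraries were mapped by the authors to hg38 with STAR 2.4.0a. The authors deposited raw counts of fragments by gene name, made with featureCounts from an Ensembl release, in which a multiply mapped read was kept at its primary position. A row without a gene name, of spike-in controls, held 0 counts and was left out.

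The counts, 23264403 to 25813247 per library, were tested by edgeR 4.0.16 (R 4.3.3) with filterByExpr, TMM scaling and the quasi-likelihood F-test, two-sided and without a block, adjusted by Benjamini-Hochberg over 16710 genes. Intervals came from the same fit. Ratios and sums within a library were compared by exact permutation. The fits were tested on simulated counts.

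Same-numbered replicates deviated together from their group means (correlations across genes of 0.594, 0.405 and 0.325, against -0.443 to 0.211 for different numbers, where those above 0 join replicates 2 and 3), and the deposited descriptions give same-numbered libraries of both groups a shared code that is not explained, so the numbers were taken to pair the libraries. The study's methods state no pairing, and the block stayed an alternative. Other alternatives were DESeq2 1.42.0, limma-voom (limma 3.58.1), RLE factors, other filters, DNM1 with its pseudogenes added, and each library left out. Leaving out replicate 1 of both groups was chosen after seeing the data.

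The 10 genes, lists and tests were chosen with earlier results of these data known. Named were the 10 genes, PTCH1, the 3 most abundant DNM1 pseudogenes and, per list, up to 6 genes with an adjusted p under 0.05 and the most abundant one. PIP5K1B, CAV1, the RNAs within dynamin genes, the genes that passed only with the block and the markers were named after their values were seen. Sequences were read with Python 3.11.15 from GENCODE transcripts and RefSeq promoters.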

Additional observations from a re-analysis of the deposited data

How the results depend on the processing

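DNM1 and DNM3 both passed by edgeR with TMM or RLE factors, DESeq2, limma-voom and with no filter on low counts. Of the 10 genes, 2 passed in the main comparison, 1 with at least 10 counts in every library, 1 with the DNM1 pseudogenes added, 5 with the replicate block, 5 with the block and without replicate 1 of both groups, and between 0 and 2 with each library left out. Log2 fold changes were above 0 for 4 of the 10, and for between 3 and 6 with each library left out. Over all genes the 624 calls became 911 with DESeq2, 1111 with no filter, 3758 with the replicate block, 2013 without replicate 1 of both groups, 4190 without it and with the block, and between 219 and 810 with each library left out. The 8 calls in the 5 lists of other genes became 27 with the replicate block, 16 without replicate 1 of both groups, 32 without it and with the block, and between 3 and 11 with each library left out. Without replicate 1 of both groups 3 of the 10 genes passed, HIP1 added (log2 fold change -0.22, adjusted p = 0.0300), beside 12.0% of all tested genes.

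Signs reversed for CLTC (-0.057 without H295R replicate 1) and for CLTA (0.013) and CLTB (0.0045) without H295R-PM-Ptc+ replicate 2, and with each library left out the log2 fold changes ranged from -0.057 to 0.29 for CLTC, from -0.071 to 0.013 for CLTA and from -0.031 to 0.0045 for CLTB. They ranged from -0.093 to -0.0042 for PICALM, from -0.074 to -0.020 for AP2M1 and from 0.099 to 0.17 for DNM2. For HIP1R they ranged from 0.057 to 0.22 and for HIP1 from -0.32 to -0.18. The cause was not tested. The DNM1 to DNM3 ratio lay between -1.17 and -0.89, HIP1 to HIP1R between -0.54 and -0.31 and CLTB to CLTA between -0.025 and 0.050 (log2 differences) with each library left out. Paired by replicate number, no exact permutation test of the 3 ratios can go below p = 0.25, and DNM1 to DNM3 and HIP1 to HIP1R reached it. DNM1 had the fewest counts of the 10 genes, 194 to 296 per library.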
